A study of Mus musculus with 12 samples.

Results

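The genes described here encode core proteins of the spliceosome and the RNA-binding proteins that steer it. They were chosen by symbol, as genes whose name begins with Srsf and a digit, Snrp, Sf3a, Sf3b, Hnrnp, Prpf and a digit, or U2af, leaving out pseudogene symbols. The rule used no measured value and found 67 of the 12151 genes of the table. They comprised 10 SR protein genes, 3 U2AF genes, 9 genes of the SF3 complexes, 12 Snrp genes, 13 Prp factor genes and 20 hnRNP genes.

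Expression was measured by sequencing of polyadenylated RNA in 12 libraries. The cells were pre-B cells of mice that carried the BCR-ABL1 oncogene, which models the acute lymphoblastic leukemia of the B lineage (B-ALL). The study asked how stabilized β-catenin acts on these cells, and whether that depends on the lymphoid transcription factors Ikaros and Aiolos, the products of Ikzf1 and Ikzf3. Values are the authors' normalized log2 values, so that a difference of 1 stands for a doubling. All changes below are differences of these log2 values unless a percentage is given.

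All 4 groups shared the BCR-ABL1 oncogene and a Ctnnb1 (β-catenin) locus with loxP sites around exon 3 on 1 allele, in cells from mice aged 6 to 12 weeks. Lines grown from single cells had been edited with Cas9 and guides that have no target (WT) or with guides for Ikzf1 together with Ikzf3 (KO). They then carried a GFP vector for ERT2 alone (control) or for Cre-ERT2, which removes exon 3 upon treatment with 4-hydroxytamoxifen and so stabilizes β-catenin. The 2 WT groups, named ERT2 WT and Cre-ERT2 WT here, and the 2 KO groups, ERT2 KO and Cre-ERT2 KO, held 3 replicates each. The stated time is day 1 after treatment, in a protocol worded for chromatin experiments. Because each line descended from 1 cell, a difference between KO and WT cannot be told apart from a difference between lines. Active Cre was present only in the Cre-ERT2 groups, so its own effect cannot be told apart from that of stabilized β-catenin. The labels do not say whether replicates were separate lines or cultures, so p-values measure only the spread between these libraries, which may be technical. Sequencing depth is unknown.

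The libraries labelled KO had more Ikzf1 mRNA than the WT libraries. Ikzf1 lay between 13.66 and 13.75 in the 6 WT libraries and between 14.56 and 14.76 in the 6 KO libraries, whereas Ikzf3 lay between 11.59 and 11.93 in WT and between 10.97 and 11.34 in KO. Guides act on the gene and need not lower its mRNA, so the Ikzf1 values do not check the labels, and KO below means the libraries labelled KO. Of 14 B-lineage markers, all were in the table, with a summed level of 17.25 to 17.28 in WT and 16.74 to 16.80 in KO libraries. Cd79a was the highest single marker, with a mean of 15.10 in ERT2 WT and 14.31 in ERT2 KO. In ERT2 libraries 9 of them were lower in KO and 3 higher, and in Cre-ERT2 libraries 10 were lower and 3 higher, the higher ones being Rag1, Rag2 and Cd22 in each. Of 8 T and NK cell markers and 6 erythroid and megakaryocytic markers, 0 were among the 12151 genes. Of 8 myeloid markers, Itgam and Lyz2 were present and went opposite ways, with group means of 7.38 and 7.41 in WT and 8.40 and 8.61 in KO for Lyz2, and 4.66 and 4.70 in WT and 4.51 and 4.52 in KO for Itgam. Their summed level, mostly Lyz2, was 7.57 to 7.62 in WT and 8.45 to 8.76 in KO libraries. Of 5 stromal and endothelial markers, Pecam1 was present, at 10.72 to 11.09 in WT and 9.74 to 10.13 in KO libraries. These marker values differed with the KO label, and their part in the KO differences below was not tested. In bulk RNA, fewer cells of a type and less RNA per cell cannot be told apart.

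Introns are removed from a transcript by the spliceosome, which is built anew on each intron from small nuclear ribonucleoproteins (snRNPs) and many further proteins. The U1 snRNP recognizes the start of an intron, U2AF its end, and the U2 snRNP with SF3 the branch point, before the U4, U5 and U6 snRNPs join and the Prp factors drive the rearrangements that lead to catalysis. SR proteins mostly promote the use of exons they bind, and hnRNPs often oppose them, so that the balance of both sets which exons a cell includes. Both families regulate their own mRNA, often through exons that send a transcript to nonsense-mediated decay. In lymphocytes, hnRNP LL is known for controlling the alternative exons of the CD45 gene.

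Few splicing genes were called after β-catenin stabilization, whereas most of them were called between KO and WT libraries, as was also true of all genes. Comparing Cre-ERT2 WT with ERT2 WT, 6 of the 67 genes (8.96%) passed an adjusted p of 0.05 (limma, Benjamini-Hochberg over 12151 genes), against 11.9% of all genes. Comparing Cre-ERT2 KO with ERT2 KO, 2 of 67 (2.99%) passed, against 12.6% of all genes. At an unadjusted p under 0.05 (limma) the shares were 28.4% in WT and 22.4% in KO cells, beside 24.9% and 25.2% of all genes. Comparing KO with WT, 41 of 67 (61.2%) passed in ERT2 libraries and 41 of 67 (61.2%) in Cre-ERT2 libraries, against 59% and 58.9% of all genes. The share of splicing genes that differed between KO and WT was therefore near that of the whole table, but its direction was uneven. In ERT2 libraries 31 splicing genes (46.3%) were lower in KO and 10 (14.9%) higher, while 29.3% of all genes were lower and 29.8% higher. In Cre-ERT2 libraries 29 (43.3%) were lower and 12 (17.9%) higher, while 28.6% of all genes were lower and 30.4% higher. The shares of all genes were not matched for level, and 63 of the 67 splicing genes had a mean above the median of all genes.

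**Figure D1:**
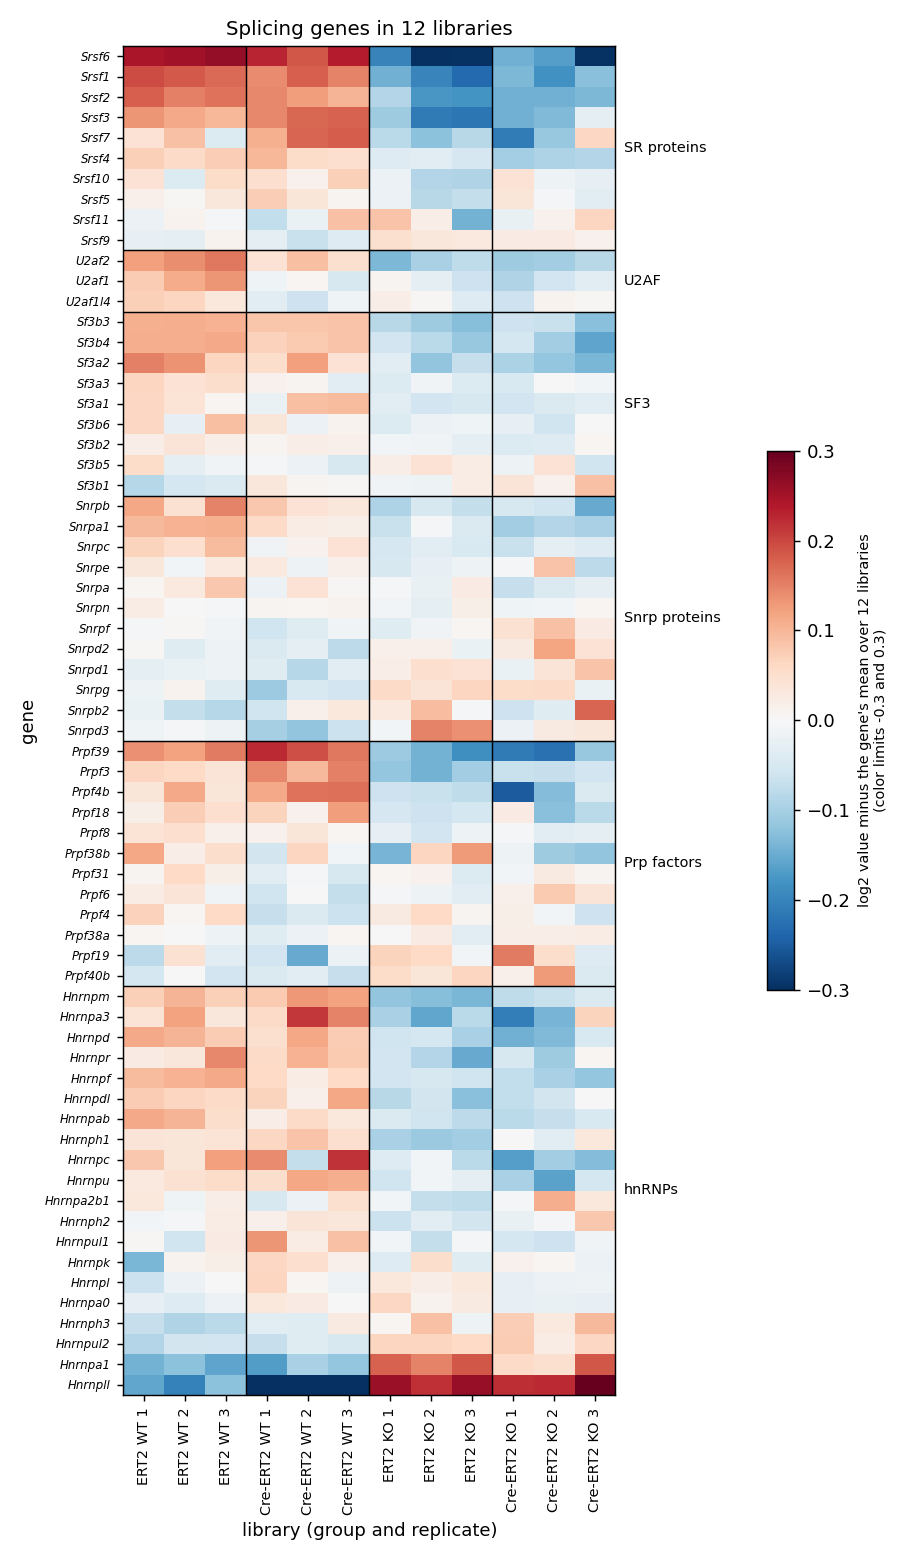
Each row is 1 of 66 splicing genes, grouped by family, and each column 1 of the 12 libraries. Color gives the log2 value of a gene minus its mean over the 12 libraries, with color limits at -0.3 and 0.3, on the deposited scale. Strong bands are seen in Srsf6, Srsf1, Srsf2, Srsf3 and Prpf39, lower in the 6 KO libraries, and in Hnrnpll and Hnrnpa1, higher in them, while the ERT2 and Cre-ERT2 libraries of a genotype look alike for most genes. Centering or quantile normalizing the libraries left the direction of these 7 genes as shown.

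The uneven direction depended in part on how libraries were scaled. With each library centered on its median, 3 splicing genes were higher and 43 lower in KO ERT2 libraries, and 6 were higher and 37 lower in KO Cre-ERT2 libraries. Over all genes that scaling gave 23.6% higher and 39.1% lower in ERT2 libraries and 24.5% higher and 39.4% lower in Cre-ERT2 libraries. With quantile normalization the counts were 11 higher and 25 lower in ERT2 libraries and 14 higher and 24 lower in Cre-ERT2 libraries, beside 27.7% higher and 32.1% lower and then 28.1% higher and 32.8% lower over all genes. Of the calls, 24 lower and 3 higher genes in ERT2 libraries and 24 lower and 6 higher genes in Cre-ERT2 libraries were the same genes under all 3 scalings, and 0 genes were called in opposite directions. The median change of the 67 genes was -0.07 in ERT2 and -0.04 in Cre-ERT2 libraries, beside 0.0016 for all genes in each. With centering it was -0.10 and -0.08, beside -0.03 and -0.03 for all genes, and with quantile normalization -0.03 and -0.02, beside -0.0078 and -0.01 for all genes.

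SR proteins, which bind enhancers in exons and recruit U1 and U2AF, held the 4 largest falls in ERT2 libraries, and 2 of the 4 largest in Cre-ERT2 libraries, where the others were the Prp factors Prpf39 and Prpf4b. In ERT2 libraries 7 of the 10 SR genes (70%) were lower in KO and 1 (10%) was higher, with a median difference of -0.12. In Cre-ERT2 libraries 6 (60%) were lower and 1 (10%) was higher, with a median difference of -0.20. Over all genes, 29.3% were lower and 29.8% higher in ERT2 libraries, then 28.6% and 30.4% in Cre-ERT2 libraries. Both medians stayed negative under centering (-0.15 and -0.24) and quantile normalization (-0.07 and -0.16).

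Srsf6 (ENSMUSG00000016921) showed the largest fall of the 67 genes in both comparisons. It lies at chr2:162931528-162937121 on the plus strand (GRCm38, GENCODE M21). Its values were 12.89, 12.89 and 12.90 in ERT2 WT and 12.87, 12.83 and 12.88 in Cre-ERT2 WT. They were 12.44, 12.33 and 12.34 in ERT2 KO and 12.49, 12.47 and 12.34 in Cre-ERT2 KO. All 6 KO libraries lay below all 6 WT libraries. The KO minus WT difference was -0.52 (SE 0.038, limma adjusted p = 1.17e-07) in ERT2 libraries, a change of -30.4% in level, and -0.42 (SE 0.038, adjusted p = 9.38e-07) in Cre-ERT2 libraries.

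Srsf1 (ENSMUSG00000018379), the founding member of the family and a known oncoprotein when in excess, lies at chr11:88047373-88053755 on the plus strand. Its values were 14.22, 14.21 and 14.19 in ERT2 WT and 14.16, 14.20 and 14.17 in Cre-ERT2 WT. They were 13.88, 13.82 and 13.79 in ERT2 KO and 13.89, 13.84 and 13.90 in Cre-ERT2 KO. Again no KO library reached a WT library. The difference was -0.38 (SE 0.025, limma adjusted p = 3.97e-08) in ERT2 and -0.30 (SE 0.025, adjusted p = 3.06e-07) in Cre-ERT2 libraries.

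Srsf2 (ENSMUSG00000034120, chr11:116849901-116853094, minus strand), which is recurrently mutated in myeloid neoplasms, gave 13.56, 13.53 and 13.54 in ERT2 WT, 13.52, 13.50 and 13.48 in Cre-ERT2 WT, 13.29, 13.21 and 13.20 in ERT2 KO, and 13.24, 13.24 and 13.25 in Cre-ERT2 KO. Its differences were -0.31 (SE 0.025, limma adjusted p = 2.39e-07) and -0.26 (SE 0.025, adjusted p = 1.13e-06), and the genotypes did not overlap. Srsf3 (ENSMUSG00000071172, chr17:29032628-29043373, plus strand), the smallest SR protein, was between 13.73 and 13.81 in the 6 WT libraries and between 13.42 and 13.61 in the 6 KO libraries. Its differences were -0.29 (SE 0.034, limma adjusted p = 8.73e-06) and -0.26 (SE 0.034, adjusted p = 2.24e-05). These 4 SR genes kept their calls under the 3 scalings and without any single library. Of the 31-base words of Srsf3 transcripts, however, 37.6% also occur in 6 other genes, 5 of them pseudogenes, so its values are less certain. The share is 0% for Srsf6, Srsf1 and Srsf2.

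The other SR genes moved less, and several were named after their values were seen. Srsf4, a longer SR protein, was lower in KO by differences of -0.11 and -0.16 in ERT2 and Cre-ERT2 libraries, both called. Srsf5 (-0.07) and Srsf10 (-0.09) were called lower in ERT2 libraries, though not with quantile normalization, and stood at -0.04 without a call in Cre-ERT2 libraries. Srsf7 showed the reverse, with -0.13 (limma adjusted p = 0.0709) in ERT2 and -0.24 (adjusted p = 0.00241) in Cre-ERT2 libraries. Its Cre-ERT2 KO values of 11.22, 11.32 and 11.49 were the most spread of its 4 groups (SD 0.138). All lay below the Cre-ERT2 WT values of 11.54, 11.61 and 11.61, though replicate 3 lay within the range of the ERT2 WT libraries. Srsf9 was called higher in both, by 0.05 and 0.06, but not with each library centered on its median. Its call in ERT2 libraries (limma adjusted p = 0.048) was also lost with a replicate block and in a fit to the 6 libraries compared. That call was lost, too, without any single library other than ERT2 WT replicate 3 or Cre-ERT2 KO replicate 3. For Srsf5, 31.9% of the 31-base words also occur in a processed pseudogene. Srsf11 was not called in any comparison. For none of these genes did the 2 KO differences differ from each other at an adjusted p of 0.05.

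**Figure D2:**
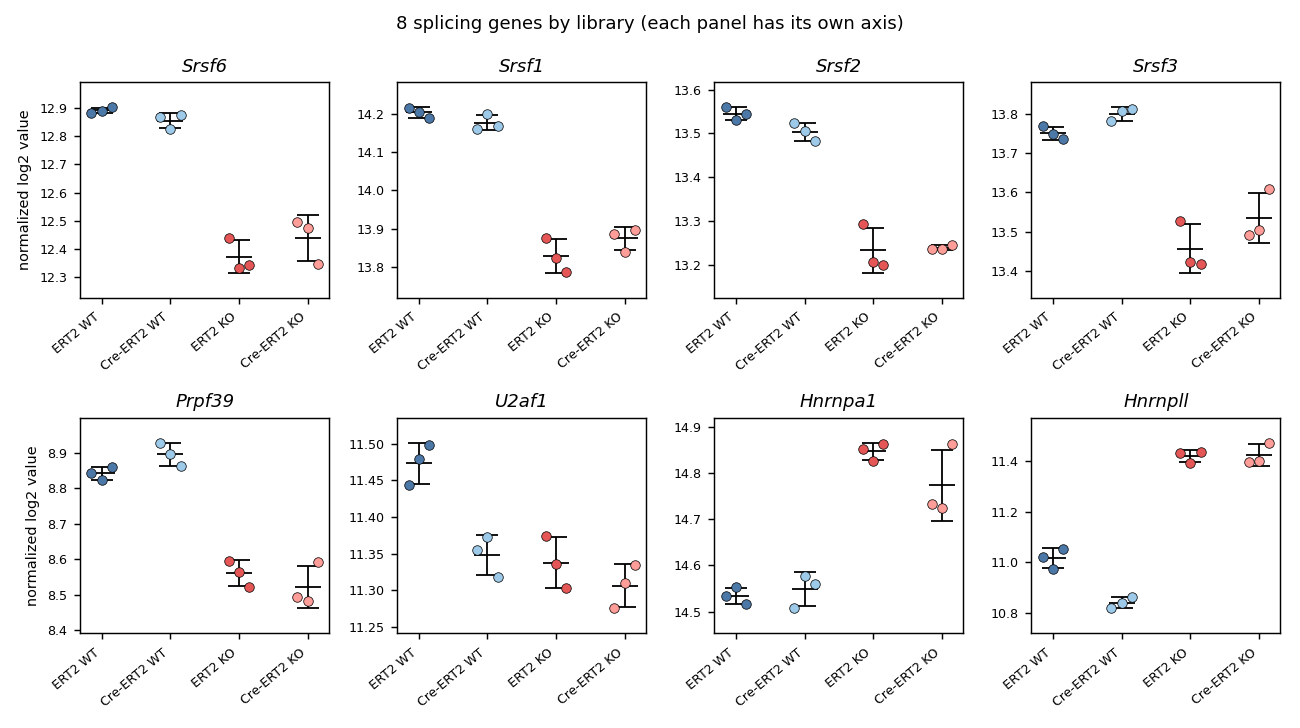
Points are single libraries and bars the mean and SD of 3 replicates, for 8 splicing genes in the 4 groups. The vertical axis is the authors' normalized log2 value and has its own range in each panel. For Srsf6, Srsf1, Srsf2, Srsf3 and Prpf39 all KO libraries lie below all WT libraries, for Hnrnpa1 and Hnrnpll above them, and for U2af1 the ERT2 WT libraries lie above the other 3 groups. These directions held under the 3 scalings, except that the U2af1 difference between KO and WT was called in Cre-ERT2 libraries with median centering only.

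Promoter windows are shown for some of the genes with large KO differences. RefSeq promoters of GRCm38.p6 (250 bases before to 50 after a start) were matched by symbol for 58 of the 67 genes, giving 79 windows. Genes with no entry included Hnrnpll, Hnrnpul2, Prpf18, Sf3b4, Sf3b5, Snrpb, Snrpd1 and U2af2. Below are the 120 bases up to the start, 5′ to 3′ on the gene's strand, for the 3 SR genes with the largest falls in ERT2 libraries and for Hnrnpa1, an hnRNP gene that was higher in KO. Capitals mark CCAAT and GGGAA, the latter a core letter group of Ikaros binding, each read on both strands, so that TTCCC is GGGAA on the other strand.
Srsf6, chr2:162931388-162931507, plus strand: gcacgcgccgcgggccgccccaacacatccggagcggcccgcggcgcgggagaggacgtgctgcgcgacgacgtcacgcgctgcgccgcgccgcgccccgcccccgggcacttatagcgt
Srsf1, chr11:88047253-88047372, plus strand: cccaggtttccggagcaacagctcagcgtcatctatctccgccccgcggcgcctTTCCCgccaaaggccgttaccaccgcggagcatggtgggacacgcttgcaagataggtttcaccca
Srsf2, chr11:116853095-116853214, minus strand: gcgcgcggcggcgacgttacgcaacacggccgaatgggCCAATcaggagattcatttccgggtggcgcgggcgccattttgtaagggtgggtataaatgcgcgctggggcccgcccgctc
Hnrnpa1, chr15:103240277-103240396, plus strand: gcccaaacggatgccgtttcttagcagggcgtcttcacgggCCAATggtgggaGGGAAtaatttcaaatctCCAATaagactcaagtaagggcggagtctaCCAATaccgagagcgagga

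The Hnrnpa1 window held 3 CCAAT matches and 1 GGGAA match, Srsf1 held 1 GGGAA match, Srsf2 held 1 CCAAT match, and Srsf6 held 0 of either. Their GC content was 51.7%, 62.5%, 65.8% and 80.0%, respectively. Over whole windows, GGGAA was found in 59.5% of the 79 member windows, beside 64.5% of 10927 windows of genes in the table and 62.7% of all 32851 RefSeq windows. CCAAT was found in 48.1%, 38.3% and 37.4% of these sets, and the E-box CACGTG, which Myc can bind, in 13.9%, 10.2% and 7.15%. The letters CTTTGAT, which TCF and LEF factors can bind, were in 2.53%, 2.47% and 3.73%. The 4 motifs were each read on both strands and none contains another. Among genes with an entry, an E-box was in 6 of the 27 that were lower in KO ERT2 libraries, in 1 of 8 that were higher and in 2 of 23 that were not called, and GGGAA in 15 of 27, 6 of 8 and 19 of 23. A match describes letters only and is no evidence of binding.

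The U2AF heterodimer reads the polypyrimidine tract and the AG at the end of an intron. After β-catenin stabilization in WT cells 2 of its 3 genes were lower, while 5.95% of all genes were lower and 5.93% higher. U2af1 (ENSMUSG00000061613, chr17:31647081-31658892, minus strand), the AG-binding subunit, gave 11.44, 11.48 and 11.50 in ERT2 WT and 11.35, 11.37 and 11.32 in Cre-ERT2 WT. All ERT2 WT libraries lay above all Cre-ERT2 WT libraries, and the change was -0.13 (SE 0.026, limma adjusted p = 0.00808). In KO cells the values were 11.37, 11.34 and 11.30 with ERT2 and 11.28, 11.31 and 11.33 with Cre-ERT2, which overlapped, and the change was -0.03 (adjusted p = 0.516). The difference between the effects in KO and WT was 0.09 (adjusted p = 0.215), so an unequal effect was not shown.

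U2af2, the pyrimidine-tract subunit, gave 12.68, 12.69 and 12.71 in ERT2 WT and 12.60, 12.64 and 12.60 in Cre-ERT2 WT, a change of -0.08 (SE 0.022, limma adjusted p = 0.0336). This call was lost without any 1 ERT2 WT replicate, without Cre-ERT2 WT replicate 1 or 3, and in a fit to the 6 libraries compared (adjusted p = 0.0544), which leaves 1 of 3 genes. The 6 KO libraries lay between 12.42 and 12.48, below every WT library, with differences of -0.24 in ERT2 and -0.16 in Cre-ERT2 libraries, both called. U2af1l4, a paralog of the small subunit, changed by -0.09 in WT cells and was not called (adjusted p = 0.068). Sequence is shared between these genes and others, as 57.1% of the 31-base words of U2af1 transcripts, 39.2% of U2af2 and 70.7% of U2af1l4 also occur in transcripts of other genes, mostly pseudogenes or, for U2af1l4, a protein-coding gene model, so their values are uncertain.

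SF3 proteins hold the U2 snRNP at the branch point. In KO ERT2 libraries 5 of 9 SF3 genes (55.6%) were lower and 1 (11.1%) was higher, beside 29.3% and 29.8% of all genes. In KO Cre-ERT2 libraries 4 (44.4%) were lower and 0 higher, beside 28.6% and 30.4% of all genes. The median differences were -0.08 and -0.04. Sf3b3 (-0.21 and -0.17), Sf3b4 (-0.19 and -0.18) and Sf3a2 (-0.19 and -0.19) fell in both, and kept these calls under the 3 scalings. For Sf3b4, 55.0% of the 31-base words are shared with a processed pseudogene. Sf3a1 (-0.08 and -0.10) was called lower in both, but not with quantile normalization. Omitting a single library ended its call in ERT2 libraries for 4 of the 12 libraries. Sf3b1, the subunit that contacts the branch point and is mutated in several blood cancers, had positive values in these comparisons. Its values were 14.12, 14.16 and 14.17 in ERT2 WT, 14.24, 14.22 and 14.21 in Cre-ERT2 WT, 14.20, 14.19 and 14.23 in ERT2 KO, and 14.25, 14.22 and 14.30 in Cre-ERT2 KO. It rose after β-catenin stabilization in WT cells by 0.08 (SE 0.022, limma adjusted p = 0.0441). Its KO difference was 0.06 in ERT2 libraries (limma adjusted p = 0.0371) and 0.03 in Cre-ERT2 libraries (adjusted p = 0.262). Neither the rise in WT cells nor the KO difference in ERT2 libraries was called with libraries centered on their median. The latter call was also lost on omitting a single library for 5 of the 12 libraries.

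The Snrp genes encode the ring of Sm proteins common to most snRNPs and proteins of U1 and U2. They were split in direction. In KO ERT2 libraries 3 of 12 (25%) were lower and 2 (16.7%) higher, beside 29.3% and 29.8% of all genes. In KO Cre-ERT2 libraries 3 (25%) were lower and 5 (41.7%) higher, beside 28.6% and 30.4% of all genes. The median differences were -0.01 and 0.01, signs that turned to 0.02 under quantile normalization and -0.02 under centering, respectively. Snrpb, of the Sm ring, was between 12.08 and 12.19 in WT and between 11.89 and 11.99 in KO libraries, with differences of -0.17 and -0.14. Snrpa1, a U2 protein (-0.14 and -0.13), and Snrpc, a U1 protein (-0.11 and -0.06), were also called lower in both. In Cre-ERT2 libraries Snrpc was not called with quantile normalization or in a fit to the 6 libraries compared. Omitting a single library ended that Snrpc call for 8 of the 12 libraries. Snrpd3 (0.10 and 0.11) and Snrpg (0.07 and 0.10), both of the Sm ring, were called higher in both, which centering removed for Snrpd3 in both and for Snrpg in ERT2 libraries. For Snrpd3, ERT2 KO replicate 1 (10.87) lay within the ERT2 WT range. Its ERT2 call was lost without any single ERT2 WT replicate, or without ERT2 KO replicate 2 or 3. The Snrpg call in ERT2 libraries was lost with a replicate block and without any single ERT2 KO replicate, among other omissions. Snrpd2 was called higher in Cre-ERT2 libraries alone at 0.11, beside 0.02 in ERT2 libraries, with KO Cre-ERT2 values of 11.35, 11.44 and 11.36 against 11.27, 11.29 and 11.24 in Cre-ERT2 WT. Snrpd1 (0.09) and Snrpf (0.09) were likewise called higher in Cre-ERT2 libraries, Snrpd1 not with centering. Of the 31-base words, 25.2% in Snrpc, 23.1% in Snrpf, 19.6% in Snrpg, 17.8% in Snrpd2 and 14.3% in Snrpd1 also occur in other genes. The values of these genes are therefore less certain. Snrpa, the U1 protein that binds the U1 RNA loop, was not called in any comparison on the deposited scale. The same held for Snrpn, a Sm protein mainly of brain, which was near 3.29 in all libraries. After β-catenin stabilization 0 of 12 Snrp genes passed in WT (3 at an unadjusted p under 0.05 by limma) and 0 of 12 in KO cells (3 at an unadjusted p under 0.05), a share at the background of 24.9% and 25.2% of all genes at that unadjusted p.

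Prp factors include the catalytic scaffold and the proteins that assemble and remodel the U4, U5 and U6 particle. Of 13 genes, 5 (38.5%) were lower and 1 (7.69%) higher in KO ERT2 libraries, and 4 (30.8%) were lower and 2 (15.4%) higher in KO Cre-ERT2 libraries. That is 46.2% called in each, below the 59% and 58.9% of all genes, of which 29.3% and 28.6% were lower. The family medians of -0.04 in each became 0.0039 and -0.0041 with quantile normalization. Prpf39, an alternative U1 partner, showed the largest difference of the family. Its values were 8.84, 8.83 and 8.86 in ERT2 WT, 8.93, 8.90 and 8.86 in Cre-ERT2 WT, 8.60, 8.56 and 8.52 in ERT2 KO, and 8.49, 8.48 and 8.59 in Cre-ERT2 KO. All KO libraries lay below all WT libraries, with differences of -0.28 (SE 0.034, limma adjusted p = 1.28e-05) and -0.38 (SE 0.034, adjusted p = 9.05e-07).

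Prpf4b, a kinase that phosphorylates spliceosome proteins, was lower in KO with differences of -0.13 (limma adjusted p = 0.021) and -0.29 (adjusted p = 9.22e-05). Prpf3, of the U4 and U6 particle, gave -0.17 and -0.20 between KO and WT, both called, and rose after β-catenin stabilization in WT cells by 0.08 (SE 0.022, adjusted p = 0.0427), from 10.66, 10.66 and 10.63 to 10.74, 10.69 and 10.75. The rise was not called with median centering (limma adjusted p = 0.0633), with a replicate block (0.0601), in a fit to the 6 libraries compared (0.0816), or without any 1 library other than Cre-ERT2 WT replicate 2 or Cre-ERT2 KO replicate 3. Its partner Prpf4 was lower after stabilization in the same libraries, from 10.64, 10.58 and 10.63 to 10.50, 10.53 and 10.51, a change of -0.10 (SE 0.027, limma adjusted p = 0.0286) that was not called without ERT2 WT replicate 1 or 3 or any 1 Cre-ERT2 WT replicate. Prpf8, the scaffold of the active site, was lower in KO ERT2 libraries by a difference of -0.07 (adjusted p = 0.00745, not called with quantile normalization) and stood at -0.04 in Cre-ERT2 libraries (adjusted p = 0.0817). Prpf19, a ubiquitin ligase of the active spliceosome, and Prpf6, which bridges the particle, were called higher in KO Cre-ERT2 libraries alone, at 0.13 and 0.09, and with centering neither was. Omitting a single library ended the Prpf19 call for 4 of the 12 libraries.

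**Figure D3:**
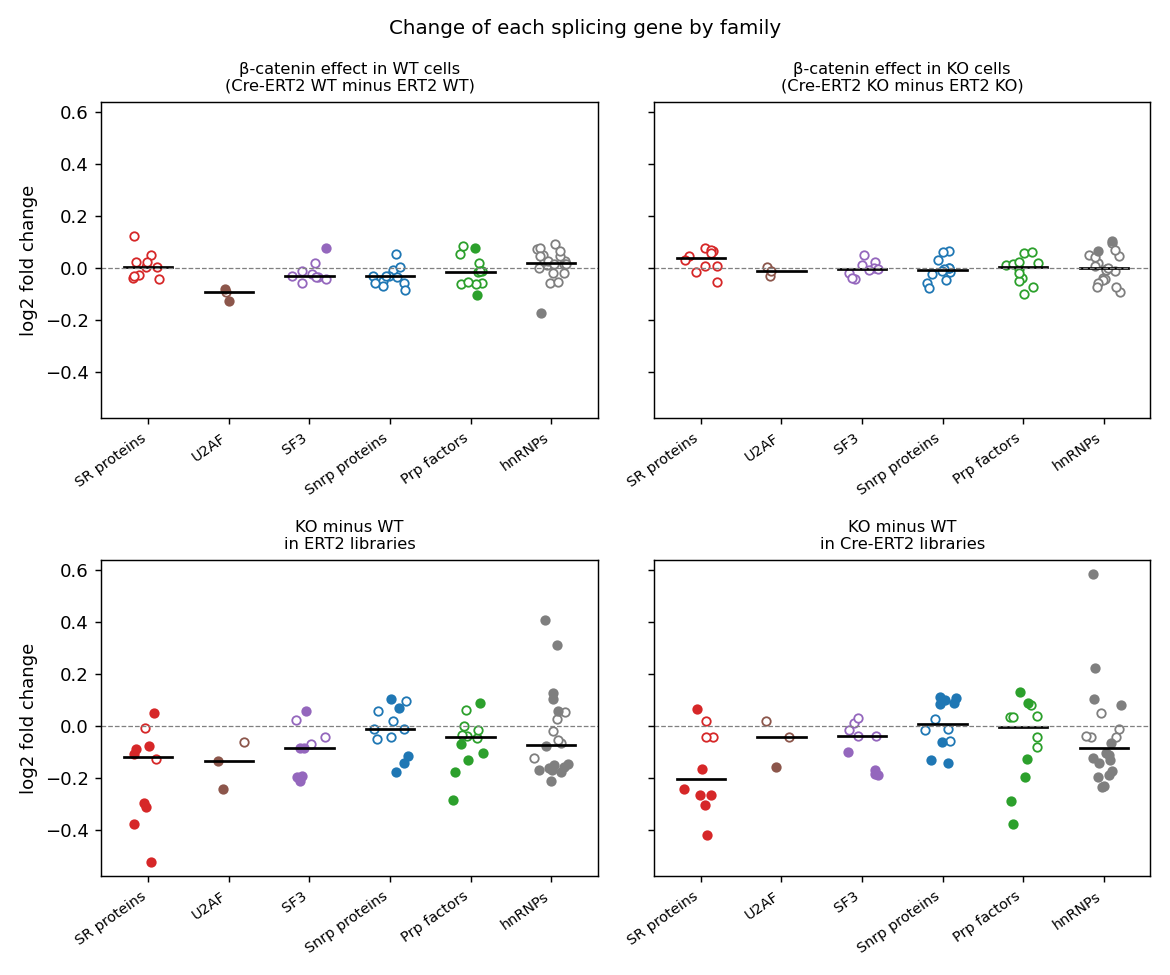
Each point is the log2 fold change of 1 of 66 splicing genes, by family, in the 4 comparisons. Filled points passed a limma adjusted p of 0.05, open points did not, and black bars are family medians of the genes shown. The β-catenin panels hold 6 and 2 filled points close to 0, and the KO panels 41 each, mostly below 0 for SR proteins. On the deposited scale 10 and 12 of these were higher, and with libraries centered on their median 3 and 6 were.

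The hnRNPs coat nascent transcripts and influence splicing, export and stability. Of 20 genes, 9 (45%) were lower and 5 (25%) higher in KO ERT2 libraries, beside 29.3% and 29.8% of all genes. In KO Cre-ERT2 libraries 11 (55%) were lower and 4 (20%) higher, beside 28.6% and 30.4% of all genes. The medians of -0.07 and -0.08 stayed negative under both other scalings.

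Hnrnpll (ENSMUSG00000024095, chr17:80029487-80062334, minus strand) was called in 4 of the 5 comparisons, counting the difference between the β-catenin effects, and no other splicing gene in more than 3. Its values were 11.02, 10.97 and 11.05 in ERT2 WT and 10.82, 10.84 and 10.86 in Cre-ERT2 WT. They were 11.43, 11.39 and 11.44 in ERT2 KO and 11.40, 11.40 and 11.47 in Cre-ERT2 KO. The 3 levels were thus ordered without overlap, with Cre-ERT2 WT lowest, ERT2 WT next and both KO groups highest and overlapping each other. KO exceeded WT by 0.41 (SE 0.029, limma adjusted p = 7.74e-08) in ERT2 libraries, which is 32.6%, and by 0.58 (SE 0.029, adjusted p = 2.25e-09) in Cre-ERT2 libraries, which is 49.9%. After β-catenin stabilization in WT cells it fell by 11.4%, or a log2 change of -0.17 (SE 0.029, limma adjusted p = 0.00147), with 3 of 3 Cre-ERT2 libraries below every ERT2 library. In KO cells the change was 0.0018 (SE 0.029, adjusted p = 0.983).

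The β-catenin effect on Hnrnpll therefore differed between KO and WT cells by 0.18 (SE 0.04, limma adjusted p = 0.0291). It was the 1 of 67 splicing genes (1.49%) whose effect differed, against 4.53% of all genes, of which 2.71% were more positive in KO. Leaving out 1 library at a time kept this difference between 0.15 and 0.20. The adjusted p rose to between 0.0505 and 0.0753 without ERT2 WT replicate 1 or 3, Cre-ERT2 WT replicate 1 or 2, or any 1 of the 3 ERT2 KO replicates, and 0 splicing genes then passed. Without Cre-ERT2 KO replicate 3, 5 genes passed. No 31-base word of Hnrnpll transcripts occurs in another gene.

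Hnrnpa1 (ENSMUSG00000046434, chr15:103240432-103246692, plus strand), a classic antagonist of Srsf1 in the choice of splice sites, was higher in KO. Its values were 14.53, 14.55 and 14.52 in ERT2 WT, 14.51, 14.58 and 14.56 in Cre-ERT2 WT, 14.85, 14.82 and 14.86 in ERT2 KO, and 14.73, 14.72 and 14.86 in Cre-ERT2 KO. The genotypes did not overlap, and the differences were 0.31 (SE 0.033, limma adjusted p = 3.83e-06) and 0.22 (SE 0.033, adjusted p = 7.08e-05). Of its 31-base words, 48.4% also occur in other genes, 24 of them pseudogenes, so reads may have been split among copies. Hnrnpul2, related to the scaffold protein Hnrnpu, was also called higher in both (0.13 and 0.10) under the 3 scalings. Hnrnph3 was called higher in both (0.11 and 0.08), but not in either with centering. Its call in Cre-ERT2 libraries was also lost with quantile normalization, with a replicate block, and on omitting a single library for 8 of the 12 libraries.

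The hnRNP genes lower in KO in both comparisons were Hnrnpm, Hnrnpa3, Hnrnpd, Hnrnpf, Hnrnpab, Hnrnpdl, Hnrnph1, Hnrnpr and Hnrnpu. Of their 31-base words, 38.5% in Hnrnpf, 28.6% in Hnrnpa3 and 22.3% in Hnrnpm also occur in other genes, so these 3 are less certain. Quantile normalization removed Hnrnpu in ERT2 libraries and Hnrnpdl, Hnrnph1 and Hnrnpr in Cre-ERT2 libraries. Omitting a single library ended the Hnrnpu call in ERT2 libraries for 4 of the 12 libraries and the Hnrnph1 call in Cre-ERT2 libraries for 2. Hnrnpm, which binds GU-rich RNA, lay between 13.47 and 13.53 in WT and between 13.26 and 13.35 in KO libraries, with differences of -0.21 and -0.17. Hnrnpd, also called AUF1 and known for promoting decay of AU-rich mRNA, gave -0.17 and -0.19. Hnrnpu, a nuclear scaffold protein, gave -0.08 and -0.20. For Hnrnpc, which binds uridine tracts, the difference was -0.12 (limma adjusted p = 0.0839) in ERT2 and -0.23 (adjusted p = 0.00385) in Cre-ERT2 libraries. Hnrnpa2b1, Hnrnpk and Hnrnpl, the closest relative of Hnrnpll, were not called in any comparison on the deposited scale. Hnrnpl was 13.55 to 13.68 in all 12 libraries.

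In KO cells, 2 hnRNP genes were higher and 0 of the 67 genes lower after β-catenin stabilization, while 7.27% of all genes were higher and 5.33% lower. Hnrnph1, which binds G-rich RNA, rose from 12.83, 12.81 and 12.82 to 12.93, 12.89 and 12.96, a change of 0.10 (SE 0.020, limma adjusted p = 0.00408), and kept its call under each alternative tried. Hnrnpm rose by 0.07 (adjusted p = 0.0477), with all Cre-ERT2 KO libraries above all ERT2 KO libraries. Its call was lost without any 1 library except Cre-ERT2 WT replicate 1, leaving Hnrnph1 alone, 2 genes in all without Cre-ERT2 KO replicate 1, or 4 without ERT2 KO replicate 1 or Cre-ERT2 KO replicate 3. With quantile normalization 1 gene was higher and 2, Hnrnpl and Hnrnpu, were lower. With that scaling the effects on Hnrnpl (-0.146, limma adjusted p = 0.0246) and Hnrnpu (-0.154, adjusted p = 0.0271) also differed between KO and WT cells. On the deposited scale, neither the Hnrnph1 nor the Hnrnpm change differed from that in WT cells at an adjusted p of 0.05.

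Across the 67 genes, the β-catenin changes had medians of -0.01 in WT and -0.0009 in KO cells. Of those called, 0 exceeded 0.2 in size in either background. Complete separation of the 3 against 3 libraries was seen for 29 genes (43.3%) in WT and 16 (23.9%) in KO cells, while 31.1% and 28.3% of all genes were separated. The 6 genes called in WT cells were 2 higher and 4 lower, and with libraries centered on their median 0 higher and 6 lower. Hnrnpll and U2af1 kept their calls without any single library. Omitting a single library ended the calls of U2af2 and Prpf4 for 5 of the 12 libraries each, and those of Prpf3 and Sf3b1 for 10 of the 12 each. The count of 6 fell to 2 without ERT2 WT replicate 1, Cre-ERT2 WT replicate 1 or Cre-ERT2 WT replicate 3, and to 3 without ERT2 WT replicate 2 or 3.

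Most of the genes called between KO and WT were shared by both vector backgrounds. The comparisons use different libraries, though lines may be shared between them. Lower in both were 26 genes, 83.9% of those lower in ERT2 and 89.7% of those lower in Cre-ERT2 libraries, near the 82.2% and 84.2% found over all genes. Higher in both were 7 genes (70% and 58.3%, beside 83.8% and 82.2% over all genes), namely Hnrnpa1, Hnrnpll, Hnrnph3, Hnrnpul2, Snrpd3, Snrpg and Srsf9. Called in opposite directions were 0 genes, and 18 were called in neither. Complete separation was seen for 49 genes (73.1%) in ERT2 and 45 (67.2%) in Cre-ERT2 libraries, beside 65.5% and 63.6% of all genes. The count of higher genes in ERT2 libraries fell from 10 to 5 without ERT2 WT replicate 1, ERT2 KO replicate 1 or ERT2 KO replicate 3, to 6 without ERT2 WT replicate 2 and to 4 without ERT2 KO replicate 2. In Cre-ERT2 libraries it fell from 12 to 7 without Cre-ERT2 WT replicate 2. Of the 41 genes called in each comparison, 10 (24.4%) in ERT2 and 11 (26.8%) in Cre-ERT2 libraries exceeded 0.2 in size, beside 48.2% and 48.5% of all called genes.

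**Figure D4:**
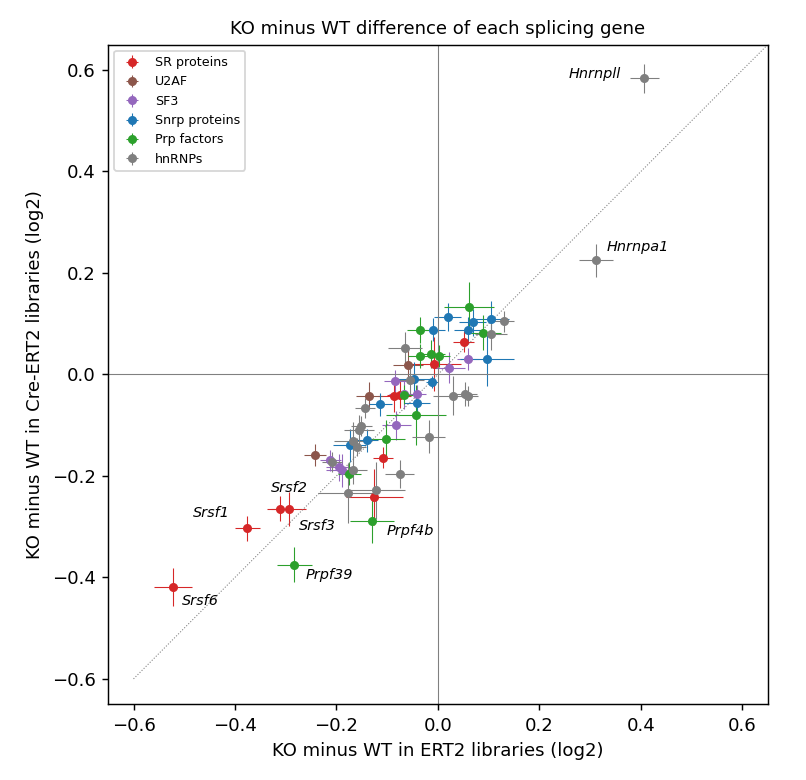
Each point is 1 of 66 splicing genes, with its KO minus WT difference in ERT2 libraries on the horizontal axis and in Cre-ERT2 libraries on the vertical axis, both in log2 units. Bars are standard errors from limma, and the dotted line marks equal differences. Srsf6, Srsf1, Srsf2, Srsf3 and Prpf39 lie at the lower left and Hnrnpll and Hnrnpa1 at the upper right, directions that held under the 3 scalings, and 0 genes were called in opposite directions.

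Genes with little sequence in common with others gave a like split. Among the 44 members with at most 10% of their 31-base words shared, 20 were lower and 8 higher in KO ERT2 libraries and 21 lower and 7 higher in KO Cre-ERT2 libraries. These counts were taken on the deposited scale only. Of all genes, 29.3% were lower and 29.8% higher in ERT2 libraries, then 28.6% and 30.4% in Cre-ERT2 libraries. The members also carry many isoforms annotated outside the protein-coding class. Of 67 members, 35 (52.2%) have a transcript of the nonsense-mediated decay class in GENCODE M21, beside 30.1% of the 10874 protein-coding genes of the table. The families differ, as 9 of 10 SR genes have one but only 1 of 9 SF3 genes. Gene-level values sum over these isoforms, so they give no measure of protein-coding mRNA alone, nor of splicing itself.

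Other splicing genes, listed by function and named otherwise, showed a similar split. Of 132 listed, 128 were in the table, and they were counted on the deposited scale only. Between KO and WT, 61 were lower and 17 higher in ERT2 libraries and 54 lower and 16 higher in Cre-ERT2 libraries, with medians of -0.08 and -0.06. These are 47.7% and 13.3% of the 128 in ERT2 and 42.2% and 12.5% in Cre-ERT2 libraries, to be read against the shares of all genes given above (29.3% lower and 29.8% higher, then 28.6% and 30.4%). After β-catenin stabilization 8 were called in WT cells and 6 in KO cells, or 6.25% and 4.69% beside 11.9% and 12.6% of all genes. The extremes between KO and WT in ERT2 and Cre-ERT2 libraries were Rbmx, the X-linked hnRNP G (-0.44 and -0.57), and Mbnl2, a muscleblind splicing regulator (0.52 and 0.51). Tra2a, an SR-related activator, was at -0.38 and -0.35. Snrnp200, the helicase that unwinds U4 from U6, was at -0.23 and -0.22. The list of SR kinases and SR-related proteins had 9 lower and 5 higher of 19 in ERT2 libraries and 8 lower and 3 higher in Cre-ERT2 libraries.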

How the data were processed

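RNA was measured in 12 libraries of 4 groups, taken from the sample titles. The authors quantified reads with Salmon 1.4.0, aligned them with STAR 2.7.6 to mm10 and analyzed them with DESeq2 1.30.1, as the methods state. The table they deposited holds normalized log2 values per gene and library, made by the authors with a transformation that is not given in the sources used here. It holds no counts, so depth is unknown, no counting interval is given, and precision rests on 3 replicates per group. Changes of weakly expressed genes may be understated. Only Snrpn and Prpf40b had a mean under 6.

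A model of 4 group means was fitted to all 12 libraries and 12151 genes with limma 3.58.1 (R 4.3.3, mean-dependent prior), with no filter or pseudocount and Benjamini-Hochberg adjustment over all genes in each of 5 contrasts. A gene was called, or described as higher, lower, raised or fallen, at an adjusted p under 0.05. The code was tested on simulated data. An exact permutation test of 3 against 3 libraries allows no p below 0.1 and was not used. Named genes were 25 fixed by role and, per contrast, the 4 largest rises and falls among called members, 34 in all. Others were named after their values were seen. The members and lists were chosen with earlier results of these data known, and lists were not tested. 1 member is counted but not reported here. All 67 identifiers were found in GENCODE M21, of the authors' build. Words of 31 bases were compared between transcripts with Python 3.11.15 to find shared sequence. Alternatives were 2 other scalings, 2 pseudocounts, a filter at a mean of 6, a constant prior, a replicate block, a threshold of 0.01, fits to 6 libraries, and leaving out each library.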

Additional observations from a re-analysis of the deposited data

Results flagged for a closer look

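Hnrnpll was singled out because its β-catenin effect differed between the KO and WT backgrounds by a test of the difference itself, 0.177 on the log2 scale (limma adjusted p = 0.0291). The change was -0.17 in WT and 0.0018 in KO cells, and Cre-ERT2 WT libraries lay below ERT2 WT libraries in 3 of 3. Its adjusted p ran from 0.0164 with a replicate block to 0.0753 without Cre-ERT2 WT replicate 1.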

How the results depend on the processing

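No named splicing gene with a call changed sign under the alternatives tried. In WT cells the 6 genes called after β-catenin stabilization became 2 at an adjusted p under 0.01. In KO cells the 2 genes became 1 with median centering, an adjusted p under 0.01, the replicate block or a fit to the 6 libraries compared, each time without Hnrnpm. Between KO and WT in ERT2 libraries, 41 called genes became 27 at an adjusted p under 0.01, and 10 higher genes became 3 with median centering and 3 at an adjusted p under 0.01. In Cre-ERT2 libraries 12 higher genes became 6 under both settings. The 1 gene with unequal β-catenin effects became 2 with a pseudocount of 32 or a constant prior, 3 with quantile normalization and 0 at an adjusted p under 0.01 (by limma, 14 splicing genes, or 20.9%, had an unadjusted p under 0.05, beside 17.3% of all genes).

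Leaving out 1 library at a time gave 2 to 9 called genes for β-catenin in WT cells, 1 to 4 in KO cells and 0 to 5 for the difference between them. Between KO and WT it gave 30 to 47 called, 4 to 13 higher and 25 to 34 lower genes in ERT2 libraries, and 34 to 40 called, 7 to 12 higher and 27 to 30 lower genes in Cre-ERT2 libraries. Fewer libraries enter these fits. Cre-ERT2 KO replicate 3 stood slightly apart, with a median absolute deviation of 0.041 from its group mates for the splicing genes, beside 0.020 to 0.033 for the other 11 libraries.

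No pairing by replicate number was seen, though weak correlations do not show that none existed. Same-numbered libraries of different groups correlated between -0.10 and 0.24 in their deviations, with 1 of 18 over 0.1. Differently numbered ones ran from -0.30 to 0.29, with 2 of 36 over 0.1. A replicate block gave 39 called genes between KO and WT with the ERT2 vector and 41 with Cre-ERT2. Depth, isoform use and the single-cell lines behind each library are not known from the table, which limits small differences most.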
